A study of Mus musculus with 77 samples.

Results

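The genes described here are 8 that mouse follicular B cells carry on their surface or use to sense the survival factor BAFF: Fcer2a, Cr2, Cd37, Cd72, Fcmr, Tnfrsf13b, Tnfrsf13c and Tnfrsf17. They were chosen by name from 34328 protein-coding and long non-coding genes. Each was read in a window of its RefSeq body (mm10) with 2 kb on either side, in the 77 CUT&RUN peak lists of the series. The lists cover 3 histone marks: H3K27ac, which marks active promoters and enhancers, H2AK119Ub, the product of Polycomb complex PRC1, and H3K27me3, the product of PRC2. All cells were splenic B cells of female mice, isolated with an antibody to CD23. CD23 is the protein of Fcer2a, so the sort selected cells by the product of 1 of the 8 genes.

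Of the lists, 24 were of H3K27ac, 24 of H2AK119Ub and 29 of H3K27me3, in 24 groups, of which 20 held 3 biological replicates. In the mb1-cre system, WT (mb1-cre+) was set against Xist fl/fl; mb1-cre+, in which Cre is made in the B lineage of the animal, so that both genotypes carry Cre. In the TAT-Cre system, WT was set against Xist fl/fl. Cells were used straight after isolation (0 h) or cultured for 24 h with CpG DNA at 1 µM, which activates B cells through TLR9. WT and Xist fl/fl cells of the TAT-Cre system also had 80 µg of TAT-Cre protein for 45 minutes before the 24 h culture and none at 0 h, so in that system CpG, time in culture and Cre cannot be told apart. No 24 h culture without CpG was analysed here, and in the mb1-cre system CpG and time in culture cannot be told apart. Strain and age are not given in the labels used here. Xist is the RNA that coats the inactive X chromosome, and all 8 genes lie on autosomes.

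BAFF is a cytokine that keeps mature B cells alive. Its main survival receptor is BAFF-R (Tnfrsf13c), while TACI (Tnfrsf13b) and BCMA (Tnfrsf17) bind both BAFF and the related cytokine APRIL. BCMA is known from antibody-secreting cells. CD23 (Fcer2a) is the low-affinity IgE receptor, CR2 (CD21) a complement receptor, and Fcmr the Fc receptor for IgM. CD37 is a tetraspanin of the B cell membrane, and CD72 an inhibitory co-receptor whose ligand is the semaphorin CD100 (Sema4d).

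Sequences are given for 4 genes. At Tnfrsf13b an H3K27ac peak appeared over the start after CpG. At Fcmr, Fcer2a and Tnfrsf13c the H3K27ac share of the whole window was lower after CpG. Their starts were covered in every H3K27ac list at both times, and the share at the start alone was not measured. The 250 bases before the first start of each gene in the RefSeq promoter table (GRCm38.p6) are printed 5′ to 3′ along the gene's own strand. Capitals mark matches on either strand to the TATA box (letters TATAAA), the PU.1 core (letters GAGGAA), the E-box (letters CAGGTG) and the GC box (letters GGGCGG).
Tnfrsf13b: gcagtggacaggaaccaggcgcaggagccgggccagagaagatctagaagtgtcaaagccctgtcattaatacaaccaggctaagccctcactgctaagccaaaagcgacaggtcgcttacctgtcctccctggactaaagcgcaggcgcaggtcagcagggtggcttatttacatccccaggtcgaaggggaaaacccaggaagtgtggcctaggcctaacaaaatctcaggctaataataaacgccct
Fcmr: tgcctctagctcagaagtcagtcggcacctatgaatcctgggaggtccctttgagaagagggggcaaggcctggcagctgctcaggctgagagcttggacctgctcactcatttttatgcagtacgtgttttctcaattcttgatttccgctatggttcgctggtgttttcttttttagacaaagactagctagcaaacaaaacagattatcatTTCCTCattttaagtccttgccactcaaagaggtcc
Fcer2a: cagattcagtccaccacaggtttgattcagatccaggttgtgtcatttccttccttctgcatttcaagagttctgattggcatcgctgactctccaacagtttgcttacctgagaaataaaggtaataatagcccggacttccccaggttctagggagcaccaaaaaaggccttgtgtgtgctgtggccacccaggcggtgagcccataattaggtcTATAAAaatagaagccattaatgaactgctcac
Tnfrsf13c: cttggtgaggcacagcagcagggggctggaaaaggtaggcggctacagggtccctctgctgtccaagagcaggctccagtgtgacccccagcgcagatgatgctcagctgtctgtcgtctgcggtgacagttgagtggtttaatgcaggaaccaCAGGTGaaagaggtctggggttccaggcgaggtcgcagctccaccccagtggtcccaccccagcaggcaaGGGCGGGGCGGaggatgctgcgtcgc
They lie at chr11:61126505-61126754 on the plus strand (Tnfrsf13b), chr1:130865527-130865776 on the plus strand (Fcmr), chr8:3694175-3694424 on the minus strand (Fcer2a) and chr15:82224381-82224630 on the minus strand (Tnfrsf13c). For Tnfrsf13b the table's start, at base 61126755 of chromosome 11, lies inside the annotated gene (chr11:61126283-61153170). Fcer2a has 1 TATA box, and Fcmr has 1 PU.1 core before its start. Tnfrsf13c has 1 E-box and 2 GC boxes that share a base. None of the 7 motifs searched on both strands (these 4, the CCAAT box, the octamer and the EBF1 motif) was found in the 300 bases of Tnfrsf13b that run to 50 after its start. In all 17274 promoters of protein-coding genes, TATAAA was found in 13.4%, GAGGAA in 27.2%, CAGGTG in 19.5% and GGGCGG in 46.9%. These are matches of letters only. None of the 8 promoters is a dense CpG island by its ratio of observed to expected CpG: the ratio was lowest at Fcer2a (0.191) and highest at Cr2 (0.581), against a median of 0.586 over all promoters, and all 8 lay below that median.

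A peak list gives regions, not reads, and the total signal of a list has no scale shown to be shared between lists. The signal share of a gene is therefore the total peak signal inside its window in ppm of the signal on all autosomes in the same list. H3K27ac lists were short at 0 h, with 1329 to 10304 peaks, and longer after CpG, with 3646 to 10125. H2AK119Ub lists held 1999 to 40486 peaks at 0 h and 9273 to 37118 at 24 h. Checked against marker genes of cell types, all 10 B cell genes had an H3K27ac peak in every list. At 0 h 7 myeloid, 4 NK cell and 4 erythroid genes had none in any list, and T cell genes had peaks for 0 to 3 of 8. In lists of 24 h, 0 to 2 myeloid genes and 1 to 2 T cell genes had a peak. The NK cell gene Klrb1c (at most 184.5 ppm) and the erythroid gene Epor (at most 5.37 ppm) had peaks in some of those lists. Of 5 marginal zone B cell genes, 2 to 4 had a peak in each list at both times. These are bulk cells, so fewer cells with a mark and less mark per cell cannot be told apart.

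H3K27ac covered 7 of the 8 genes, and H3K27me3 none. Fcer2a, Cr2, Cd37, Cd72, Fcmr and Tnfrsf13c had an H3K27ac peak in 24 of 24 lists, and it lay over the gene's start each time. Tnfrsf13b had one in 21 of 24 lists, and Tnfrsf17 in 0 of 24. Of all 21631 protein-coding genes, 3.95% had an H3K27ac peak in all 24 lists and 57.3% in none. H3K27me3 gave no peak in any of the 232 combinations of gene and list, in either genotype, system or time. So no member could be tested for it, where CpG gave calls of higher for 2.52% of 11663 genes and of lower for 0.334%. This was common, since 56.9% of protein-coding genes had no H3K27me3 peak in any of the 29 lists. H2AK119Ub was found in 81 of 192 combinations, mostly at 24 h. This was near the rate of all protein-coding genes. On average 38.9% of them had an H2AK119Ub peak in a list, 30.2% at 0 h and 47.7% at 24 h.

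**Figure D1:**
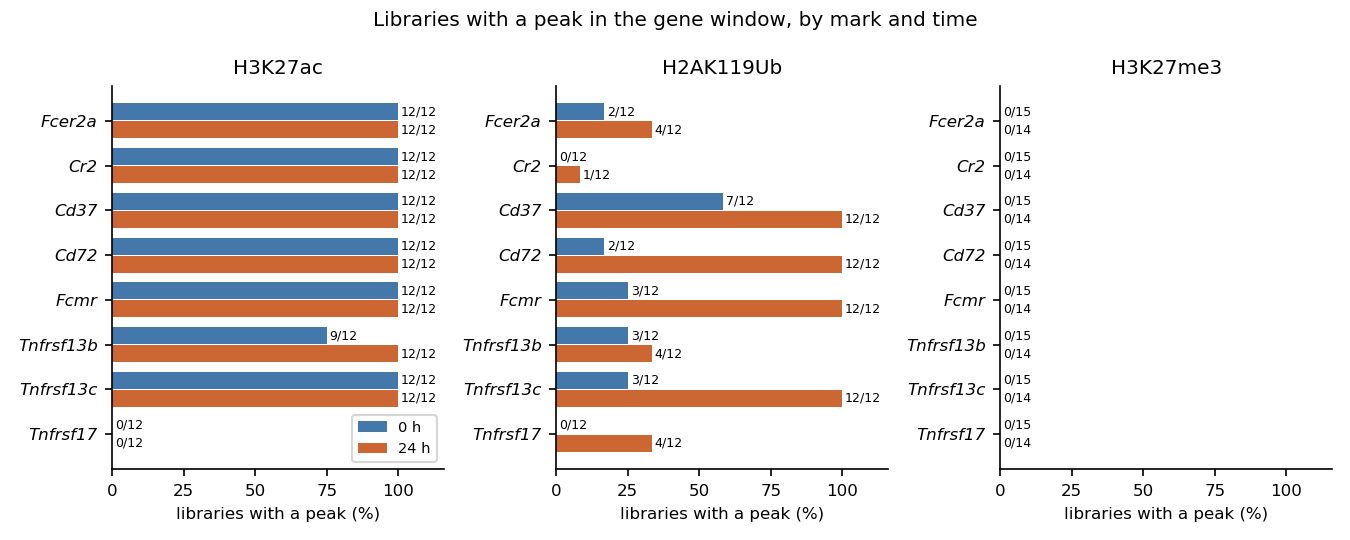
Percent of libraries (x axis) with a peak in the window of each gene (y axis) for H3K27ac, H2AK119Ub and H3K27me3, at 0 h (blue) and 24 h (orange), with counts beside the bars. H3K27ac is present in every library at 6 genes, H2AK119Ub reaches 12 of 12 at 24 h for Cd37, Cd72, Fcmr and Tnfrsf13c, and H3K27me3 is at 0 throughout.

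In WT naive cells of the mb1-cre system the share per kb of window placed Fcmr first, at 24.7 ± 3.34 ppm per kb (SD, n = 3). This was rank 43 of 21631 protein-coding genes. Tnfrsf13c followed with 21.7 ± 2.50, Cd37 with 18.4 ± 1.50, Fcer2a with 15.6 ± 1.17 and Cd72 with 15.0 ± 2.71 ppm per kb. Cr2 had 9.27 ± 0.854 and Tnfrsf13b 5.64 ± 1.73 ppm per kb. Fcmr and Tnfrsf13c, Tnfrsf13c and Cd37, and Fcer2a and Cd72 differed by less than the sum of their SDs, while the gaps from Cd37 to Fcer2a, from Cd72 to Cr2 and from Cr2 to Tnfrsf13b exceeded it. All genes were read in the same 3 libraries. In each of these Fcmr lay above Tnfrsf13c and Tnfrsf13c above Cd37, while the order of Fcer2a and Cd72 changed between libraries. After CpG the order in the same system and genotype was Cd37 (14.5 ± 0.840), Fcmr (14.1 ± 0.627), Tnfrsf13c (13.3 ± 0.954), Cd72 (11.8 ± 0.627), Tnfrsf13b (11.8 ± 1.17), Fcer2a (10.4 ± 0.644) and Cr2 (7.91 ± 0.446 ppm per kb). Tnfrsf13b thus moved from rank 1290 to rank 276, and Fcmr from 43 to 121.

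The peaks were broad. The H3K27ac peak over the start had a median length of 20.9 kb at Fcer2a, 20.5 kb at Cr2, 24.1 kb at Fcmr and 21.2 kb at Tnfrsf13c at 0 h, 15.0 kb at Cd37 and 12.2 kb at Cd72. Such peaks reach past small genes into what lies beside them. The windows of Trappc5 and Gm45231 overlap that of Fcer2a, Gm32313 that of Cr2, Tead2 and Slc6a16 that of Cd37, Tesk1 that of Cd72, Il24 that of Fcmr, Usp22 that of Tnfrsf13b and Snx29 that of Tnfrsf17. The start of Slc6a16 lies inside the window of Cd37, so acetylation of the 2 genes cannot be told apart there.

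Within Cr2, which at 40.1 kb is the longest gene of the list, the mark was densest at the start. All 12 lists of 0 h covered chr1:195172645-195178834, from 2.12 kb before the start to 4.07 kb into the gene, and all 12 of 24 h covered chr1:195173042-195178458. Further in, the number of lists fell to 2 of 12 at 0 h and to 4 of 12 at 24 h, and it was higher again near the 3′ end. The covered part of the Cr2 window ranged from 14.2% to 100% of its bases at 0 h and from 16.4% to 100% at 24 h.

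**Figure D2:**
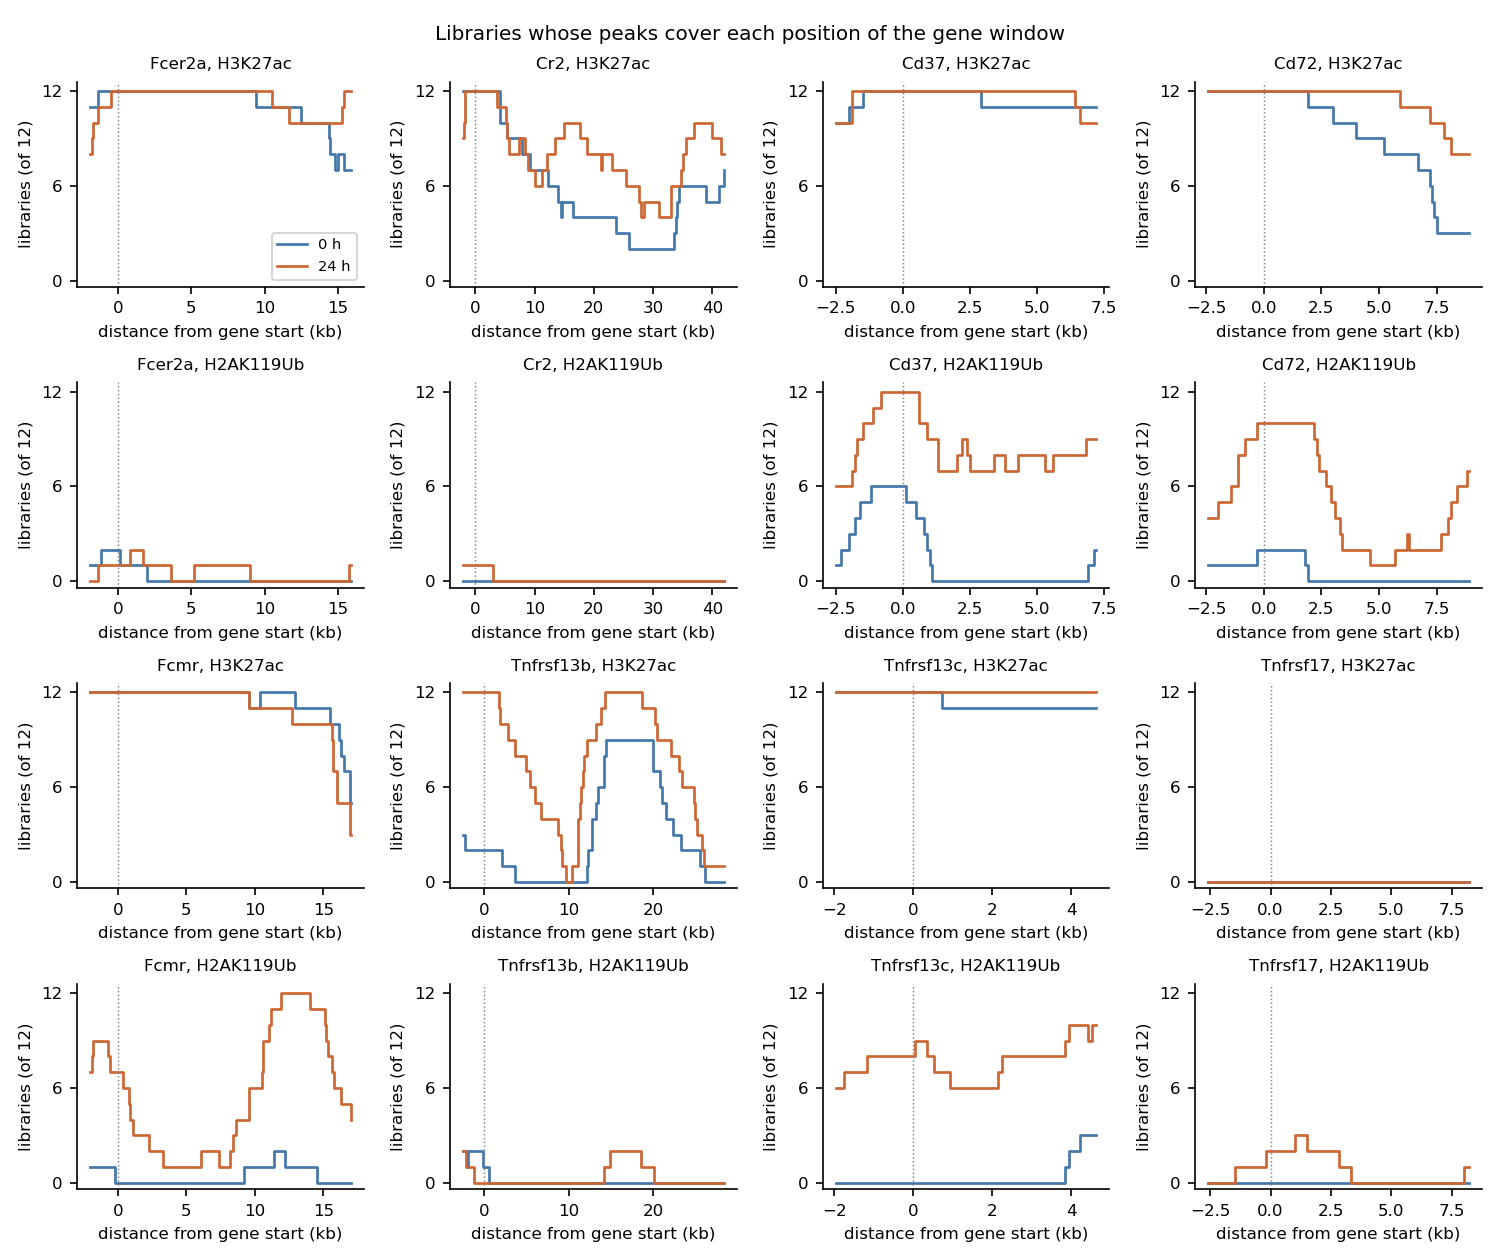
Number of the 12 libraries (y axis) whose peaks cover each position, by distance from the gene start in kb along the gene's strand (x axis), for H3K27ac and H2AK119Ub at 0 h (blue) and 24 h (orange). Dotted lines mark the start. At Tnfrsf13b the H3K27ac line at the start rises from 2 to 12 libraries, and at Fcmr the H2AK119Ub line reaches 12 far from the start.

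Tnfrsf13b, the gene of TACI, gained H3K27ac after CpG, and its start gained a peak. At 0 h the signal shares in WT mb1-cre libraries were 139, 148 and 236 ppm, and in Xist fl/fl libraries of that system 159, 155 and 214 ppm. In the TAT-Cre system they were 196, 0 and 195 ppm in WT and 0, 130.2 and 0 ppm in Xist fl/fl. At 24 h the mb1-cre libraries held 405, 351 and 336 ppm in WT and 427, 316 and 346 ppm in Xist fl/fl. The TAT-Cre libraries held 345, 350.2 and 354 ppm in WT and 392, 442 and 440.2 ppm in Xist fl/fl. Every 24 h library thus lay above every 0 h library, in both systems and genotypes. The 3 libraries at 0 came from the 3 shortest H3K27ac lists, with 1329, 1501 and 1501 peaks.

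The difference at Tnfrsf13b was 2.98 on the scale of log2(ppm + 1), with an SE of 0.91 (limma, adjusted p = 0.0110, higher in 12 of 12 libraries). In that fit 42.3% of the 9709 genes tested were called higher after CpG and 6.58% lower, so a call of higher was common. Leaving out any 1 library gave 2.42 to 3.29, called each time. Without the 3 short lists the difference was 1.11 ± 0.15 (limma SE, adjusted p = 3.39e-05), and in the mb1-cre system alone 1.07 ± 0.16 (adjusted p = 0.000369). The size given by all libraries therefore rests on the 3 libraries at 0. Without the short lists 3337 of 9707 genes were called higher and 1064 lower, and in the mb1-cre system 3857 of 9090 and 1496. With every list trimmed to the length of the shortest, Tnfrsf13b had a peak in 1 of 12 libraries at 0 h and in 12 of 12 at 24 h (exact conditional test, adjusted p = 0.000913). There 14.8% of 1753 genes were called higher and 13.5% lower. In the lists as deposited, with 9 and 12 of 12, presence did not pass (adjusted p = 0.275), where 30.7% of genes were called higher and 0.312% lower. At 500 bp of overlap those shares were 30.7% and 0.33%.

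Position separated 2 parts of the gene. An inner site, chr11:61141099-61146750, from 14.3 to 20.0 kb after the start, was set as the stretch covered in at least 9 libraries of 0 h. Only 9 libraries of 0 h had a peak at all, so their cover of the site follows from that rule. Its share was 79.4 to 127 ppm in those libraries, 0 in the rest of 0 h and 51.0 to 161 ppm in the 12 libraries of 24 h. Among libraries with a peak the times therefore overlapped there. The 2 kb on either side of the start carried no peak in 10 of 12 libraries at 0 h. The exceptions, replicate 3 of WT and replicate 3 of Xist fl/fl in the mb1-cre system, held 71.1 and 32.1 ppm there. At 24 h all 12 libraries held 69.8 to 162 ppm around the start, and all 12 covered chr11:61124283-61128424, up to the edge of the window, and chr11:61141050-61145453. Among 17274 starts of protein-coding genes, 1053 were covered in all 12 libraries of 24 h, and 54 of those, 5.13%, in at most 2 of 12 at 0 h, as at Tnfrsf13b. The sites were set after the values had been seen and were not tested.

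Fcmr, the IgM Fc receptor gene, had the highest H3K27ac share of the 8 genes at 0 h and fell after CpG. At 0 h the shares were 428, 542 and 438 ppm in WT and 550.0, 572 and 469 ppm in Xist fl/fl of the mb1-cre system. They were 538, 891 and 652 ppm in WT and 821, 441 and 806 ppm in Xist fl/fl of the TAT-Cre system. At 24 h they were 263, 282 and 260.5 ppm and then 278, 293 and 277 ppm in the mb1-cre system. In the TAT-Cre system they were 319.7, 369 and 329.6 ppm and then 539, 411 and 361 ppm. The times did not overlap in the mb1-cre system or in TAT-Cre WT. In TAT-Cre Xist fl/fl they did, since replicate 1 of 24 h (539 ppm) lay above replicate 2 of 0 h (441 ppm).

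The difference at Fcmr was −0.83 ± 0.18 on the log2(ppm + 1) scale (limma SE, adjusted p = 0.00116), and it lay between −0.90 and −0.78 when any library was left out. This has to be read against a general shift. The 1121 genes with an H3K27ac peak in every list had a median difference of −0.40 and 43.7% of them were called lower, while the lists of 24 h were longer (medians of 3163 and 7827 peaks). After scaling to those genes, the median over all genes moved from 1.66 to 1.81, and Fcmr stayed lower, at −0.41 ± 0.14 (adjusted p = 0.0176). On that scale 47.8% of all genes tested were called higher and 3.66% lower.

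Fcer2a, the gene of the sort marker CD23, also had a smaller share after CpG, a difference that did not pass the test after that scaling. At 0 h it held 277, 302 and 260.0 ppm in WT and 299.6, 342 and 288 ppm in Xist fl/fl of the mb1-cre system. In the TAT-Cre system it held 298, 354 and 388 ppm and then 486, 294 and 450.2 ppm. At 24 h the mb1-cre values were 196, 190.1 and 174 ppm and then 168, 205 and 169 ppm. The TAT-Cre values were 230.2, 268 and 218 ppm and then 259, 237 and 247 ppm. The times did not overlap within any system and genotype. The difference was −0.65 ± 0.17 (limma SE, log2 scale, adjusted p = 0.00423) and −0.23 ± 0.14 (adjusted p = 0.171) after scaling to genes with a peak in every list. Cells were isolated by CD23 before the culture at both times.

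Tnfrsf13c, the gene of BAFF-R, was at the edge of the threshold. At 0 h it held 134, 163 and 135 ppm in WT and 141, 164 and 131 ppm in Xist fl/fl of the mb1-cre system. At 24 h the same groups held 83.1, 86.5 and 95.4 ppm and 81.1, 86.8 and 76.6 ppm, all below the 0 h values. In the TAT-Cre system the times overlapped, with 127, 105 and 171 ppm and then 236, 143 and 212 ppm at 0 h, and 104.4, 114.97 and 102.9 ppm and then 179, 208 and 126 ppm at 24 h. The difference was −0.50 ± 0.19 over both systems (limma SE, log2 scale, adjusted p = 0.0304), −0.76 ± 0.11 in the mb1-cre system (adjusted p = 0.000205) and −0.09 ± 0.16 after scaling (adjusted p = 0.649). In the mb1-cre fit 1496 of the 9090 genes tested were called lower and 3857 higher. Leaving out 1 library at a time kept the call over both systems in 20 of 24 fits. It was lost without replicate 2 of WT or of Xist fl/fl in the mb1-cre system at 0 h, without replicate 3 of TAT-Cre WT at 0 h and without replicate 3 of TAT-Cre Xist fl/fl at 24 h (adjusted p = 0.0535, 0.0567, 0.0525 and 0.0501). In all, 3 of the 7 genes tested were called lower and 1 higher, beside 6.58% and 42.3% of all genes. All of the 7 but Tnfrsf13b had a peak in every list. Among the 1121 genes with such peaks, 43.7% were called lower and 3.84% higher, so calls of lower were common there.

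**Figure D3:**
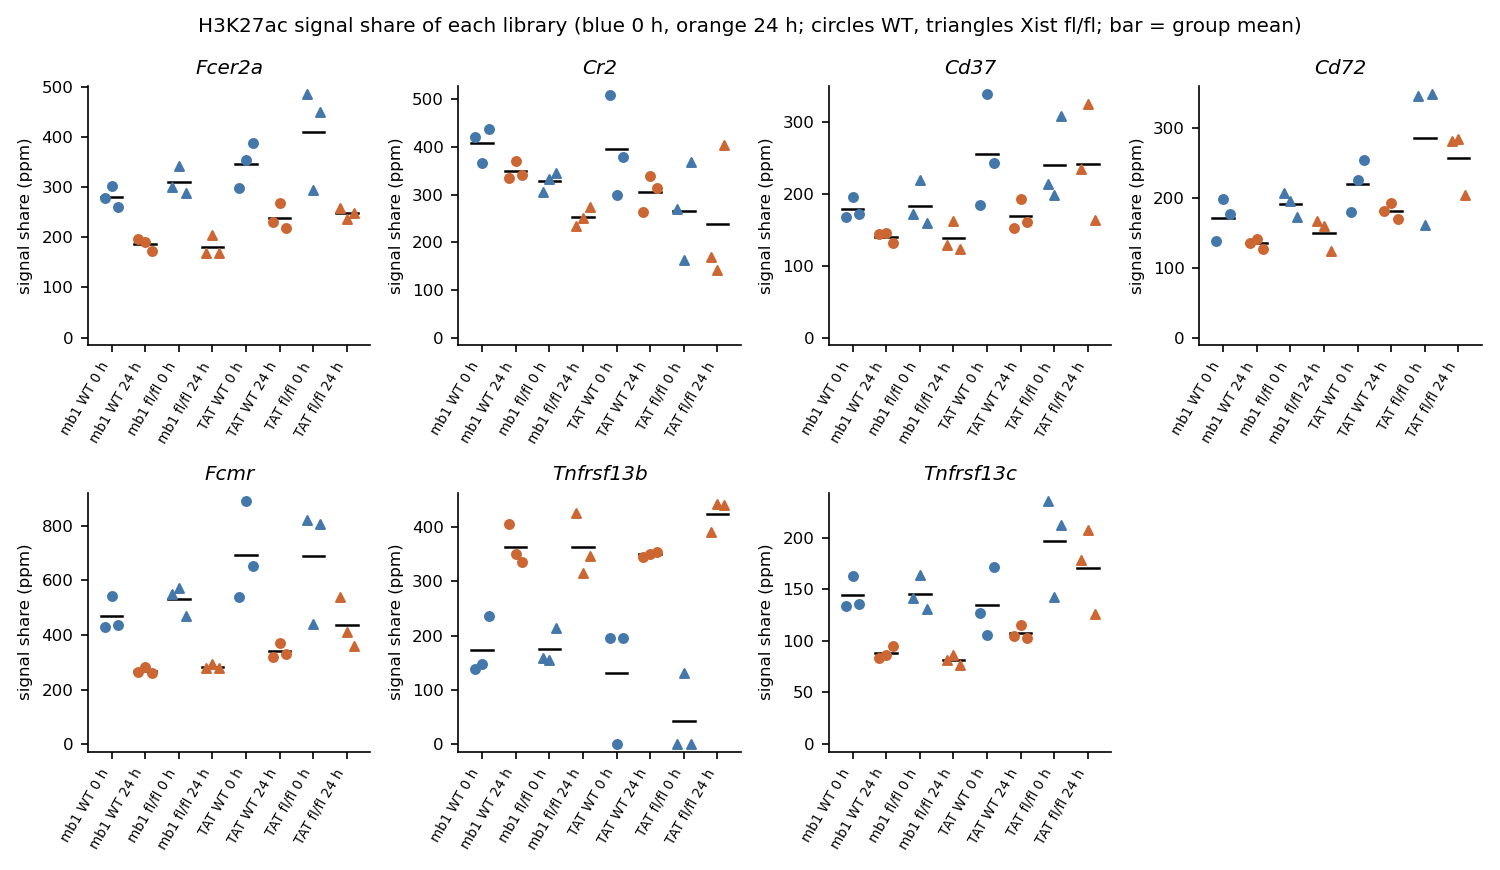
H3K27ac signal share in ppm (y axis) of each library in each system, genotype and time (x axis) for the 7 genes with peaks, with blue for 0 h, orange for 24 h, circles for WT, triangles for Xist fl/fl and a bar for the mean of 3. All orange points lie above the blue at Tnfrsf13b, and within each system and genotype they lie below the blue at Fcer2a, and at Fcmr except in TAT-Cre Xist fl/fl.

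The other acetylated genes did not pass the test over both systems. Cr2, the complement receptor gene, ranged from 162 to 509 ppm at 0 h with a median of 356 ppm, and from 141 to 404 ppm at 24 h with a median of 294 ppm. The tetraspanin gene Cd37 ranged from 159.7 to 339.7 ppm (median 197) and then from 124 to 326 ppm (median 157). The co-receptor gene Cd72 ranged from 138 to 348 ppm (median 197) and then from 123 to 283 ppm (median 168). The times overlapped at all 3 genes. Their differences were −0.30 ± 0.21 for Cr2, −0.33 ± 0.19 for Cd37 and −0.26 ± 0.19 for Cd72 (limma SE, log2 scale, adjusted p = 0.226, 0.146 and 0.241). After scaling to genes with a peak in every list they were 0.12 ± 0.21, 0.09 ± 0.15 and 0.16 ± 0.14, so even the sign depended on the scale. In the mb1-cre system alone, unscaled, all 3 were called lower (adjusted p = 0.0261 for Cr2, 0.0229 for Cd37 and 0.0402 for Cd72). Calls of lower were common in that fit, with 1496 of the 9090 genes tested, beside 3857 called higher.

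**Figure D4:**
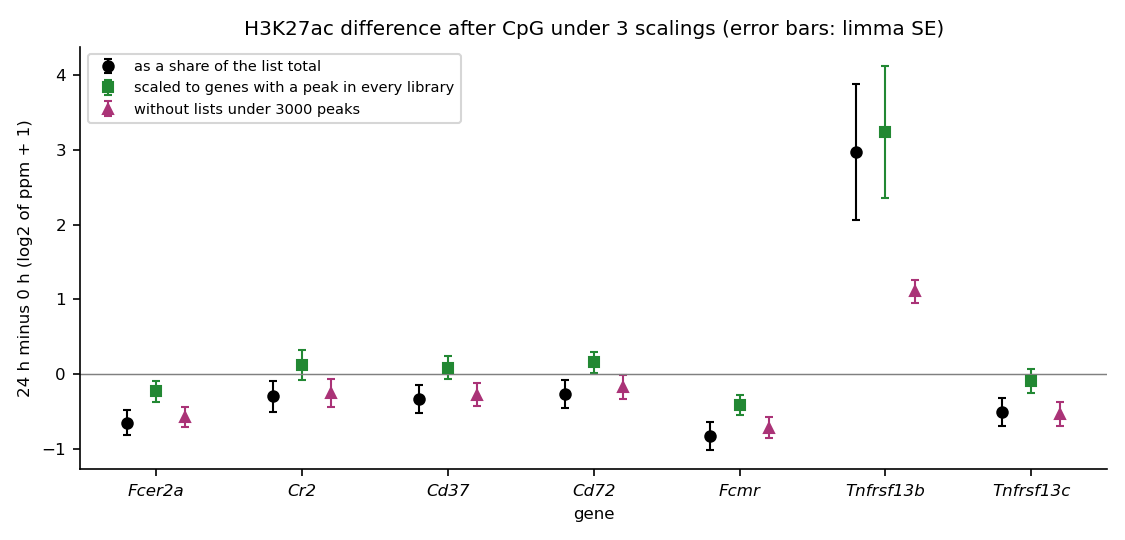
Difference in H3K27ac between 24 h and 0 h on the log2(ppm + 1) scale (y axis) for the 7 genes with peaks (x axis), as a share of the list total (circles), scaled to genes with a peak in every list (squares) and without the 3 lists under 3000 peaks (triangles), with bars for the limma SE. Tnfrsf13b stays above 0 and Fcmr below 0 under each of the 3, while Cr2, Cd37 and Cd72 change sign with the scaling.

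H2AK119Ub rose after CpG at 4 of the 8 genes, Cd37, Cd72, Fcmr and Tnfrsf13c, until all 12 lists held a peak there. Cd37 had a peak in 7 of 12 libraries at 0 h, with a highest share of 18.9 ppm, and in 12 of 12 at 24 h, from 21.5 to 99.6 ppm. Cd72 had one in 2 of 12 at 0 h, at 8.36 and 24.6 ppm, and in 12 of 12 at 24 h, from 7.86 to 66.8 ppm. Fcmr had one in 3 of 12 at 0 h, at 5.38, 22.4 and 44.5 ppm, and in 12 of 12 at 24 h, from 45.0 to 119.1 ppm. Tnfrsf13c had one in 3 of 12 at 0 h, at 3.58, 3.79 and 4.59 ppm, and in 12 of 12 at 24 h, from 4.68 to 78.0 ppm. At Cd37, Fcmr and Tnfrsf13c no library of 24 h lay below a library of 0 h, by margins that were narrow at Fcmr and Tnfrsf13c. At Cd72 the times overlapped.

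In single libraries of 24 h, Cd37 held 67.8, 65.8 and 61.6 ppm in WT and 48.4, 86.3 and 99.6 ppm in Xist fl/fl of the mb1-cre system, and 59.5, 76.9 and 21.5 ppm and then 24.9, 32.0 and 59.8 ppm in the TAT-Cre system. Cd72 held 32.7, 41.1 and 55.3 ppm, 7.86, 9.36 and 66.8 ppm, 54.7, 22.2 and 30.5 ppm, and 25.8, 43.7 and 50.6 ppm in the same order. The 2 lowest libraries of Cd72 at 24 h were thus both mb1-cre Xist fl/fl. Fcmr held 72.3, 72.5 and 73.9 ppm, 62.9, 96.5 and 119.1 ppm, 61.1, 45.0 and 46.9 ppm, and 46.8, 52.7 and 75.2 ppm in that order. Tnfrsf13c held 24.1, 37.2 and 45.3 ppm, 54.2, 39.7 and 78.0 ppm, 36.0, 35.3 and 18.4 ppm, and 14.2, 22.1 and 4.68 ppm. At Fcmr and Tnfrsf13c the mean of each mb1-cre group was above that of each TAT-Cre group, but the change over time gave no call for a difference between systems (TAT-Cre minus mb1-cre −0.30 ± 1.23 and −0.78 ± 0.77, limma interaction, adjusted p = 1.00 for both). Of 28 tests of such a difference over the genes of the list, for CpG and for Xist, 0 passed, and the smallest adjusted p was 0.191 (CpG, H3K27ac, Tnfrsf13b). Over all genes the share called was 3.62% for H3K27ac, 0.00966% for H2AK119Ub and 21.1% for H3K27me3 for CpG, and 2.04%, 0.685% and 0.978% for Xist.

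The differences on the log2(ppm + 1) scale were 3.66 ± 0.62 for Cd37, 4.35 ± 0.53 for Cd72, 5.00 ± 0.60 for Fcmr and 4.30 ± 0.38 for Tnfrsf13c (limma SE, adjusted p = 8.27e-05, 1.08e-06, 1.03e-06 and 1.14e-08). At Cd72, Fcmr and Tnfrsf13c most 0 h values are 0, and at Cd37 some are. These sizes therefore depend on the 1 ppm that was added and are no fold changes. Of 20695 genes tested, 37.9% were called higher and 5.28% lower, so the 4 calls among 7 members tested stood beside a change that was widespread. Scaled to genes with a peak in every list, the same 4 members were called, with 42.1% of all genes higher and 3.1% lower. The 1668 genes with an H2AK119Ub peak in every list had a median difference of −0.58. Of the 12 lists of 0 h, 4 had fewer than 3000 peaks, and none of these 4 held a peak at the 4 genes. Without them the differences were 2.52 for Cd37, 3.96 for Cd72, 4.43 for Fcmr and 3.88 for Tnfrsf13c, with adjusted p of 0.00132, 0.000114, 0.000142 and 4.68e-07. In that fit 4416 of 20691 genes were called higher and 1391 lower. With all lists trimmed to the shortest, Cd37 (3.70, adjusted p = 0.00545) and Tnfrsf13c (2.68, adjusted p = 0.0235) passed, and the other genes of the list kept too few peaks to be tested. There 1459 of 5380 genes were called higher and 931 lower. By presence in trimmed lists, Cd37 passed with 6 and 0 of 12 (exact conditional test, adjusted p = 0.0366, beside 17.4% of genes higher and 11.5% lower). By presence in the lists as deposited, Cd72, Fcmr and Tnfrsf13c passed (adjusted p = 0.00688, 0.0148 and 0.0129) and Cd37 did not (0.159), beside 11.1% higher and 0.16% lower. At 500 bp of overlap those shares were 11.3% and 0.19%.

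**Figure D5:**
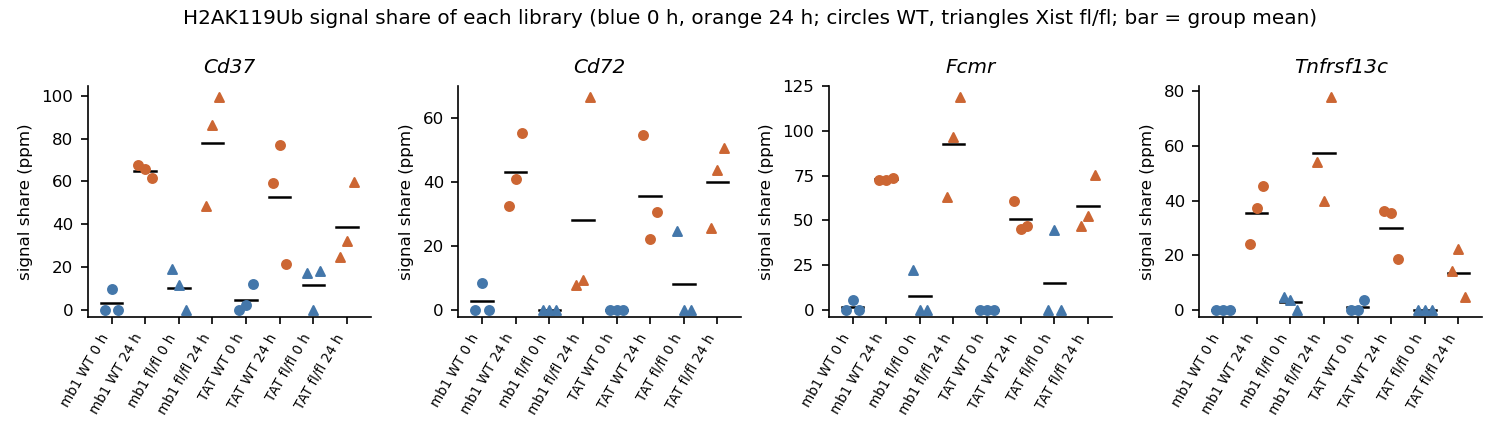
H2AK119Ub signal share in ppm (y axis) of each library in each system, genotype and time (x axis) for Cd37, Cd72, Fcmr and Tnfrsf13c, with blue for 0 h, orange for 24 h, circles for WT, triangles for Xist fl/fl and a bar for the mean of 3. Most 0 h points are at 0 and every 24 h point is above 0.

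The place of H2AK119Ub differed between these genes. At Cd37 all 12 libraries of 24 h covered chr7:45238286-45239648, across the start, and at Cd72 at least 9 of 12 covered chr4:43452420-43455428, also across the start. At Tnfrsf13c at least 9 of 12 covered chr15:82224095-82224407, a short stretch at the start, and at least 9 also covered the far edge of the window, chr15:82219742-82220597. At Fcmr all 12 covered chr1:130877645-130879691, from 11.9 to 13.9 kb after the start and toward the 3′ end, while 7 of 12 covered the start itself. At least 9 of 12 also covered chr1:130863941-130864995 at Fcmr, a stretch just before the start (−1.836 to −0.782 kb). At 0 h the start carried H2AK119Ub in 6 of 12 libraries at Cd37, 2 at Cd72, and 0 at Fcmr and Tnfrsf13c. At Cd37, H3K27ac and H2AK119Ub therefore both lay over the start in all 12 libraries of 24 h. Of the 1053 genes with H3K27ac over the start in all 12 libraries of 24 h, 42 (3.99%) also had H2AK119Ub there in all 12, against 7.71% of the other 16221. Over the whole gene window, 556 of 2356 genes with H3K27ac in all 12 libraries (23.6%) also had H2AK119Ub in all 12, against 21.6% of the other 19275. The 2 marks were read in separate libraries, so whether they lay on the same chromosomes was not measured.

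The other 4 genes had little H2AK119Ub. Fcer2a had a peak in 2 of 12 libraries at 0 h and in 4 of 12 at 24 h, at most 18.6 ppm (difference 0.55 ± 0.62, limma SE, adjusted p = 0.486). Tnfrsf13b had one in 3 and in 4 of 12, at most 29.1 ppm (0.37 ± 0.67, adjusted p = 0.676). Cr2 had a single peak in 24 libraries, 40.4 ppm in replicate 1 of mb1-cre Xist fl/fl at 24 h, and could not be tested. Tnfrsf17, the gene of BCMA, had one in 0 of 12 libraries at 0 h and in 4 of 12 at 24 h, at most 18.3 ppm (1.08 ± 0.55, adjusted p = 0.111). Of 5 marker genes of antibody-secreting cells, 1 to 2 had an H3K27ac peak in each list of 0 h (summed share 650.1 to 1102 ppm) and 2 to 3 in each list of 24 h (432 to 934 ppm), while Sdc1 and Jchain had none in any list and Prdm1 had none at 0 h. Their part in the results was not tested.

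Xist deletion was compared over libraries that had been given Cre, within each system and time. No member passed the test for H3K27ac or H2AK119Ub, and none had an H3K27me3 peak to test. Over all genes, 0 of 9502 were called for H3K27ac (0% in either direction, with 791 at an unadjusted p under 0.05), 0 of 19973 for H2AK119Ub (920 at an unadjusted p under 0.05), and 1 of 11280 for H3K27me3 (0.00887%, lower in Xist fl/fl). The differences between Xist fl/fl and WT in H3K27ac ran from −0.43 at Cr2 to 0.27 at Cd72 on the log2 scale.

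Cr2 was the only member at an unadjusted p under 0.05. In the mb1-cre system at 0 h it held 421, 366 and 438 ppm in WT and 306, 332 and 346 ppm in Xist fl/fl. At 24 h it held 334, 371 and 341 ppm in WT and 234, 251 and 274 ppm in Xist fl/fl. The genotypes did not overlap at either time. In the TAT-Cre system at 24 h they did, with 263, 338 and 315 ppm in WT and 169.6, 141 and 404 ppm in Xist fl/fl. Before any Cre was added, TAT-Cre cells held 509, 298 and 379.8 ppm in WT and 269.6, 162 and 368 ppm in Xist fl/fl, so Xist fl/fl was lower on average before Cre as well (266 ± 103 against 396 ± 106 ppm, SD, n = 3 each). The pooled difference at Cr2 was −0.43 ± 0.18 (limma SE, unadjusted p = 0.0318, adjusted p = 0.557, lower in 3 of 3 strata by group mean). It did not pass the correction over all genes. Of the others, Cd72 had 0.27 ± 0.14 (adjusted p = 0.557) and Fcer2a 0.05 ± 0.12 (adjusted p = 0.825). For H2AK119Ub the 7 members tested ran from −0.77 at Tnfrsf13b to 0.46 at Cd37, each with an adjusted p of 1.00.

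Partners of these receptors were read from a list of 34 genes of BAFF and APRIL signalling and B cell co-receptors, of which 33 were in the gene table. For H3K27ac, 31 were tested after CpG: 3 were called higher, 5 lower and 23 did not pass, with a median difference of −0.12 against 1.66 over all 9709 genes. Many of these partners had peaks throughout, 18 of the 33 in all 12 lists of 0 h and 24 in all 12 of 24 h. Among the 1121 genes with a peak in every list the median was −0.40, below that of the partners. Higher were Nfkb1, which encodes an NF-κB precursor (0.96 ± 0.20, adjusted p = 0.000569, medians of 668 and 1141 ppm), Chuk, the kinase IKKα (peaks in 1 and 9 of 12 libraries) and Adam10, the protease that sheds CD23 (5 and 10 of 12). Lower genes included Birc2 and Birc3, the cIAP ubiquitin ligases that act with TRAF proteins below BAFF-R (−0.75 ± 0.21 and −0.86 ± 0.18, adjusted p = 0.00733 and 0.000735) and Cd79b (−0.57 ± 0.19, adjusted p = 0.0175), which encodes a signalling chain of the B cell receptor. The ligand gene Tnfsf13b had no H3K27ac peak in any of the 24 lists, and neither the CR2 partner Cd81 nor the CD72 ligand Sema4d passed the test (adjusted p = 0.158 and 0.396). For H2AK119Ub, 21 of 29 tested were called higher and 0 lower, beside 37.9% and 5.28% of all genes, with a median difference of 2.70 against 1.28. The largest included Cd79b (4.90 ± 0.49), Traf1 (4.90 ± 0.51) and Cxcr5 (4.85 ± 0.60, limma SE, log2 scale, adjusted p = 7.27e-08, 1.16e-07 and 1.44e-06). No gene of the list was called for H3K27me3 or for Xist with any mark.

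Genes with a pattern of H3K27ac most like each member were found by the correlation of log2(ppm + 1) over the 24 H3K27ac lists, which share cells, genotypes and list lengths with every other gene. For Tnfrsf13b they were Cobll1 (r = 0.996) and Peli1 (r = 0.994). These values include the 3 lists in which Tnfrsf13b is at 0. For Fcmr they were Evl (r = 0.981) and Birc3 (r = 0.981), the latter also a gene of the BAFF list. Fcer2a went with Per1 (r = 0.956) and 1110059E24Rik (r = 0.948), Cd72 with Mbnl1 (r = 0.933) and Cd79a (r = 0.928), Cd37 with Gpr18 (r = 0.924) and Lrch4 (r = 0.919), and Tnfrsf13c with Zfp36 (r = 0.908) and Milr1 (r = 0.895). Cr2 had the lowest correlation with its closest gene, Atp6v1g3 (r = 0.786). These correlations describe the 24 lists and carry no test.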

How the data were processed

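The 77 deposited peak lists, 1 per library, give for each peak its position on mm10, total signal and highest signal. The unit of both, as the authors deposited it, is signal, with no shared scale shown. Trimmomatic 0.32, Bowtie2 2.3.4.1, Picard and deepTools 3.5.1 are named in the submitters' processing notes, without their roles. For SEACR, the peak caller named in the lists, no version, control or spike-in scaling is stated there.

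Signal share was total peak signal in a gene window (GRCm38.p6 body and 2 kb flanks), prorated by overlap, in ppm of the list's autosomal signal. log2(ppm + 1) was fitted with limma 3.58.1 (R 4.3.3) over all genes found in 3 or more libraries, by system and genotype for CpG and by system and time for Xist, with Benjamini-Hochberg adjustment over all genes and a threshold of 0.05. The fit was tested on simulated H3K27ac and H2AK119Ub data, built only from genes with a peak in every library. Genes with no peak in some libraries, as at Tnfrsf13b and in the H2AK119Ub calls, were not simulated. Presence of a peak was compared by a two-sided exact conditional test. The libraries are labelled biological replicates. Replicate 5 of naive mb1-cre Xist fl/fl for H3K27me3 has a title and a treatment entry that differ and was grouped by title. Read depth is unknown, so list length stands in for it. All 8 genes were described, with those called given per library, the listed partners and the 2 most correlated genes each. Members and lists were chosen with earlier results of these data known. Some genes of the partner list are counted but not reported by name here.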

Additional observations from a re-analysis of the deposited data

How the results depend on the processing

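The number of genes of the list called after CpG for H3K27ac, 4 as reported, was 2 with the covered share of the window, 2 with the upper 50% of each list, 7 with whole peaks, 0 by presence in the lists as deposited or with 500 bp of overlap, and 1 by presence in trimmed lists. Among alternatives chosen after seeing the data it was 2 after scaling to genes with a peak in every list and 7 in the mb1-cre system. The number called over all genes moved as well. With the covered share 4753 of 9709 were higher and 157 lower, and with the upper 50% 2976 of 6697 and 375. With whole peaks they were 4157 of 9709 and 626, after scaling 4639 of 9709 and 355, and in the mb1-cre system 3857 of 9090 and 1496. For H2AK119Ub, the number of genes of the list called, 4 as reported, was 2 with trimmed lists and 1 by their presence. In the trimmed fit 1459 of 5380 genes were called higher and 931 lower. The lists trimmed and the upper 50% hold fewer peaks, and presence cannot change where every library has a peak. For the other differences the cause was not tested. Leaving out 1 library gave 3 to 4 calls for CpG in H3K27ac, 4 for CpG in H2AK119Ub, and 0 for Xist in either mark. For H3K27me3 no gene of the list had a peak, so none could be called in any fit.

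H3K27ac differences that changed sign were, for covered share in percentage points, Fcer2a 1.61, Cr2 19.2, Cd37 2.71, Cd72 17.3 (adjusted p = 0.0205) and Tnfrsf13c 4.97. On the log2 scale they were Cd37 0.0361 and Cd72 0.108 in trimmed lists, Cd37 0.314, Cd72 0.4 and Tnfrsf13c 1.98 in the upper 50%, and Cr2 0.122, Cd37 0.0873 and Cd72 0.159 after scaling. Tnfrsf13c lost its call with trimmed lists, a pseudocount of 0.1, the gene body alone, the trend and robust settings and scaling (adjusted p = 0.371, 0.0567, 0.0692, 0.0680 and 0.649). Tnfrsf13b and Fcmr kept direction in every limma fit run, and Fcmr lost its call with the covered share (adjusted p = 0.352). Fcer2a lost its call with the covered share, the upper 50% and scaling (adjusted p = 0.726, 0.299 and 0.171).

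The labels do not say that 1 replicate number is 1 animal, so the numbers were not taken to pair the libraries. For CpG, deviations of same-numbered replicates correlated over 0.1 in 0 of 12 pairs for H3K27ac, 0 of 12 for H2AK119Ub and 1 of 14 for H3K27me3. For Xist they did in 4 of 9, 2 of 9 and 3 of 11, with highest values of 0.363, 0.490 and 0.344. These correlations do not settle whether the libraries were paired. With the replicate block, Tnfrsf13c lost its H3K27ac call (−0.504, adjusted p = 0.0924), 3 genes of the list were called for H3K27ac and 4 for H2AK119Ub. With that block 3606 of 9709 genes were called higher and 545 lower for H3K27ac, and 7809 of 20695 and 993 for H2AK119Ub. Over all genes the number called for CpG as reported, without the block, was 4747 for H3K27ac (1226 in trimmed lists), 8931 for H2AK119Ub (2390 in trimmed lists) and 333 for H3K27me3 (41 with the block, 3679 in the mb1-cre system). For Xist it was 0 for H2AK119Ub (95 without lists under 3000 peaks, also chosen after seeing the data), 0 for H3K27ac (at most 1) and 1 for H3K27me3 (0 to 9).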
